A study of Mus musculus with 11 samples.

Results

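Messenger RNA of 10 genes of the neuromuscular junction was followed in the tibialis anterior (TA) muscle of 11 male mice of 14 weeks of age. The genes were taken by symbol: Chrna1, Chrnb1, Chrnd, Chrne and Chrng, which encode the subunits of the muscle acetylcholine receptor, Musk, Dok7 and Rapsn, which place and hold the receptor at the synapse, and Ache and Colq, which encode the enzyme that destroys acetylcholine and its collagen tail. They are 10 of the 21759 gene symbols in the table, each is read by a single probe set out of 28350, and all 10 passed the minimum signal for testing. The 3 C57 mice were wild-type C57/B10 animals without treatment. The 4 mdx mice were of the same strain and carried the mdx allele, a nonsense mutation of the dystrophin gene Dmd, and were also untreated. The 4 treated mice, T1 to T4, carried the mdx allele too and had received Pip6e-PMO, a peptide-conjugated morpholino that makes the splicing machinery skip the mutated Dmd exon, as 1 intravenous dose of 12.5 mg/kg when they were 12 weeks old. No mdx group received saline or a control oligonucleotide, so injection and oligonucleotide cannot be told apart.

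A separate Affymetrix array was run for each animal, with RNA of cryosections from the middle of the muscle belly. How many endplates a set of sections held was not measured, and in such bulk samples fewer cells of a type and less RNA per cell cannot be told apart. Values are log2 of the deposited intensities, and a difference between groups is a difference between mean log2 signals. Genes were called changed at a Benjamini-Hochberg adjusted p under 0.05 from limma over the 14494 probe sets whose group mean reached 30 in some group. The median intensity of an array was 27.5 to 28.6, so a signal under 30 lies in the lower range of the array. The tissue label was borne out by 8 fast skeletal muscle genes, whose mean log2 signal was 12.6 to 12.8 on every array. T2 had the lowest weight of the 11 arrays (0.256) when limma estimated weights from how far each array lay from its group over all probe sets, and array quality and the response of the mouse cannot be told apart in such a weight. The paper reported the least exon skipping by RT-qPCR and the least dystrophin by mass spectrometry in the treated sample it names T2. Its western blot values did not correlate significantly with either method, and it calls densitometry less quantitative. Whether the response of T2 accounts for the low weight was not tested. No mouse, T2 included, stood apart by Dixon's test in the 20 sets of 4 mice tested, the mdx and the treated group for each of the 10 genes. With 4 values that test flags only a very wide gap, and it covered the 10 genes alone, so it cannot show that T2 was ordinary. Leaving T2 out is given beside the results of the treated mice, as a description of how far they rest on it.

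At the junction the motor nerve releases acetylcholine onto receptors packed into the crests of the muscle membrane. The receptor is a ring of 5 subunits: in fetal, denervated and newly formed fibres it holds the gamma subunit, and after innervation the epsilon subunit takes its place, while the alpha, beta and delta subunits are shared. Agrin from the nerve binds Lrp4 and switches on the kinase MuSK, Dok7 keeps MuSK active, and rapsyn ties the receptors into clusters. Away from the synapse, electrical activity keeps the receptor genes low, and without it myogenic factors such as myogenin act on short E-boxes in their promoters. At the synapse, transcription of the epsilon gene also uses an N-box, which is bound by the GABP factor.

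The RefSeq promoter sequences of 4 receptor genes are shown because Chrng, Chrna1 and Chrnb1 were called changed in mdx muscle and Chrne was not. Each RefSeq entry covers the 250 bases before the start of 1 transcript in GRCm38.p6, and is printed 5′ to 3′ on the strand of the gene, with E-boxes (CANNTG) in capitals. For Chrnb1 and Chrne the RefSeq gene record begins further upstream than that transcript, so the last 29 and 19 bases of these entries lie inside the gene and are left out, which leaves 221 and 231 bases. They lie at chr1:87205561-87205810 on the plus strand for Chrng, chr2:73580339-73580588 on the minus strand for Chrna1, chr11:69795967-69796187 on the minus strand for Chrnb1 and chr11:70619214-70619444 on the minus strand for Chrne.
Chrng: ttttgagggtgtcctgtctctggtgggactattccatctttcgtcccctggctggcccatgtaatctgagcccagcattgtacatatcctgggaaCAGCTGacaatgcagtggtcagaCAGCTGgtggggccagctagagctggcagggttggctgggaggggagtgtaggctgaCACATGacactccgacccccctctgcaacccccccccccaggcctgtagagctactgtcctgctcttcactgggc
Chrna1: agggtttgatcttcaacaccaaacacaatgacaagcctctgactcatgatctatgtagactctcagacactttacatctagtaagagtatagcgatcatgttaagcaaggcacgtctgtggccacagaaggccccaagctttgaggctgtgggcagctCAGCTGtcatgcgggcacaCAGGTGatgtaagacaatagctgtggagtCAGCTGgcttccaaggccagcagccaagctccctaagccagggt
Chrnb1: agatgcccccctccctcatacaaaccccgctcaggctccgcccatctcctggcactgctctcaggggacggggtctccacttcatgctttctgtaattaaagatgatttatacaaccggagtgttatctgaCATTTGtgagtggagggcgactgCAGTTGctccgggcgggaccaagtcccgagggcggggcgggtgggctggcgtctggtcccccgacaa
Chrne: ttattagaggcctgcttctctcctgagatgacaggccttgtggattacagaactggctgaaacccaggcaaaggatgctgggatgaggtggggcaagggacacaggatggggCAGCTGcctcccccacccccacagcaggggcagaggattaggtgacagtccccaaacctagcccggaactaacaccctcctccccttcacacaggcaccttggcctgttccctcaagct

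Of the 10 genes, 7 had a promoter entry, and Chrnd, Rapsn and Colq were not matched. The motifs searched on both strands were CANNTG, the E-box, CAGCTG, an E-box core favoured by myogenic factors and thus a subset of CANNTG, and CCGGAA, the N-box core. Positions are counted from the transcript start of each entry. The Chrng promoter held E-boxes that begin at bases -155, -132 and -75, the first pair of them with the CAGCTG core. The Chrna1 promoter held E-boxes at -92, -73 and -44, with CAGCTG at -92 and -44. In the Chrnb1 entry the E-boxes lay at -119, -96 and -29, and none was CAGCTG; the match at -29 begins on the first base of the gene record and is not in the run shown. The Chrne promoter had 1 E-box, a CAGCTG at -138, and was the only entry among the 7 genes with CCGGAA, at -76. Musk held 3 E-boxes, and Ache and the first of the 2 Dok7 entries held 1 each. Of the Musk entry 233 bases lie inside the gene record, of the Dok7 entries 195 and 250, and of the Ache entry 7. Over 32851 mouse promoter entries of the same length, 66.2% held CANNTG, 13% held CAGCTG and 12.0% held CCGGAA, so an E-box as such is common. A match to these letters is a description and not a bound site.

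**Figure D1:**
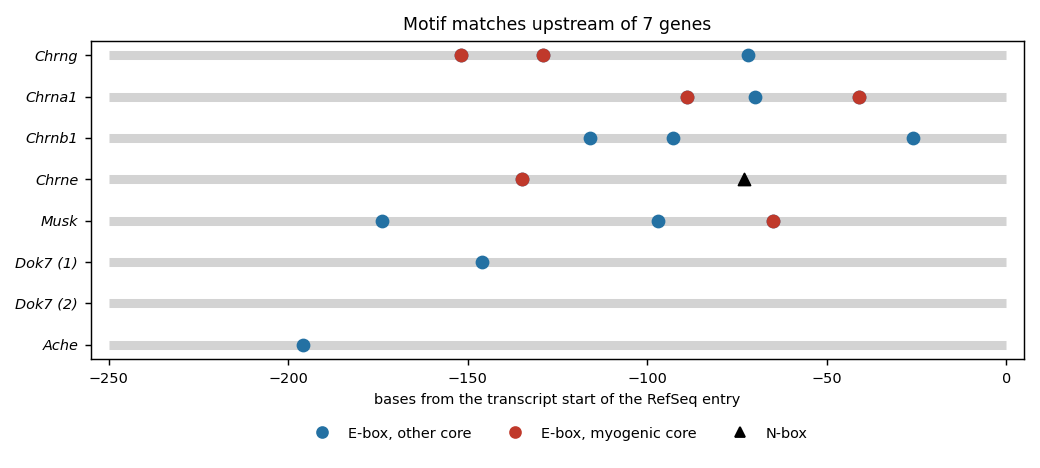
Position of motif matches in the 250 bases before the transcript start of each RefSeq entry (grey bars, GRCm38.p6) for the 7 genes with an entry, Dok7 with 2. The horizontal axis is the distance in bases from that start, which for Musk and Dok7 lies inside the gene record, blue circles are E-boxes (CANNTG) with another core, red circles E-boxes with the core CAGCTG, and the black triangle is the N-box core of Chrne at -76, the only one in these entries.

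In mdx against C57 muscle, 3 receptor subunit genes rose: Chrng, Chrna1 and Chrnb1. No member fell. Among all 14494 probe sets 7.06% were called higher and 4.96% lower in this comparison. The median difference of the 10 genes was 0.03, against -0.01 over all probe sets tested, since the other 7 genes had differences between -0.26 and 0.15. In 4 of the 10 genes the mdx mice did not overlap the C57 mice, against 24.3% of all probe sets.

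Chrng, the fetal gamma subunit (probe set 10348166, chromosome 1), gave the widest difference. Its log2 signal was 4.12, 4.25 and 4.17 in C57 mice 1 to 3, and 6.50, 6.23, 7.15 and 5.80 in mdx mice 1 to 4. The treated mice T1 to T4 measured 5.03, 6.59, 5.08 and 4.21. Every mdx mouse lay above every C57 mouse, T2 lay among the mdx mice, and T4 lay among the C57 mice. The rise in mdx was 2.24 (standard error 0.44, 4.72-fold, adjusted p = 0.0063 in limma), and 2.00 to 2.45 over the fits without 1 mouse. In C57 the signals lie under 30, with a mean of 18.1 on the linear scale, so the size of the rise is limited by background. With signals under 30 raised to 30, a choice made after seeing the data, it was 1.51 (adjusted p = 0.0256 in limma). Chrng passed the minimum signal through the mdx and treated groups, and with no minimum its adjusted p was 0.0116.

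Chrna1, the alpha subunit that carries most of the acetylcholine binding site (probe set 10483706, chromosome 2), measured 7.38, 7.35 and 7.53 in the C57 mice and 8.63, 8.54, 8.85 and 8.24 in the mdx mice. T1 to T4 measured 8.37, 8.01, 7.88 and 7.51. The C57 and mdx ranges were apart by more than the whole C57 range, T2 and T3 lay between them, T1 lay in the mdx range and T4 in the C57 range. The rise in mdx was 1.14 (standard error 0.18, 2.21-fold, adjusted p = 0.002 in limma), and it ranged from 1.05 to 1.25 when single mice were left out.

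Chrnb1, the beta subunit (probe set 10387625, chromosome 11), measured 8.48, 8.04 and 8.39 in the C57 mice and 9.17, 9.04, 9.07 and 9.03 in the mdx mice. Its treated values were 8.61, 9.19, 8.87 and 8.65 in T1 to T4. The mdx mice were close together and above every C57 mouse, and all treated mice lay above every C57 mouse as well. The rise in mdx was 0.77 (standard error 0.15, 1.71-fold, adjusted p = 0.00507 in limma).

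**Figure D2:**
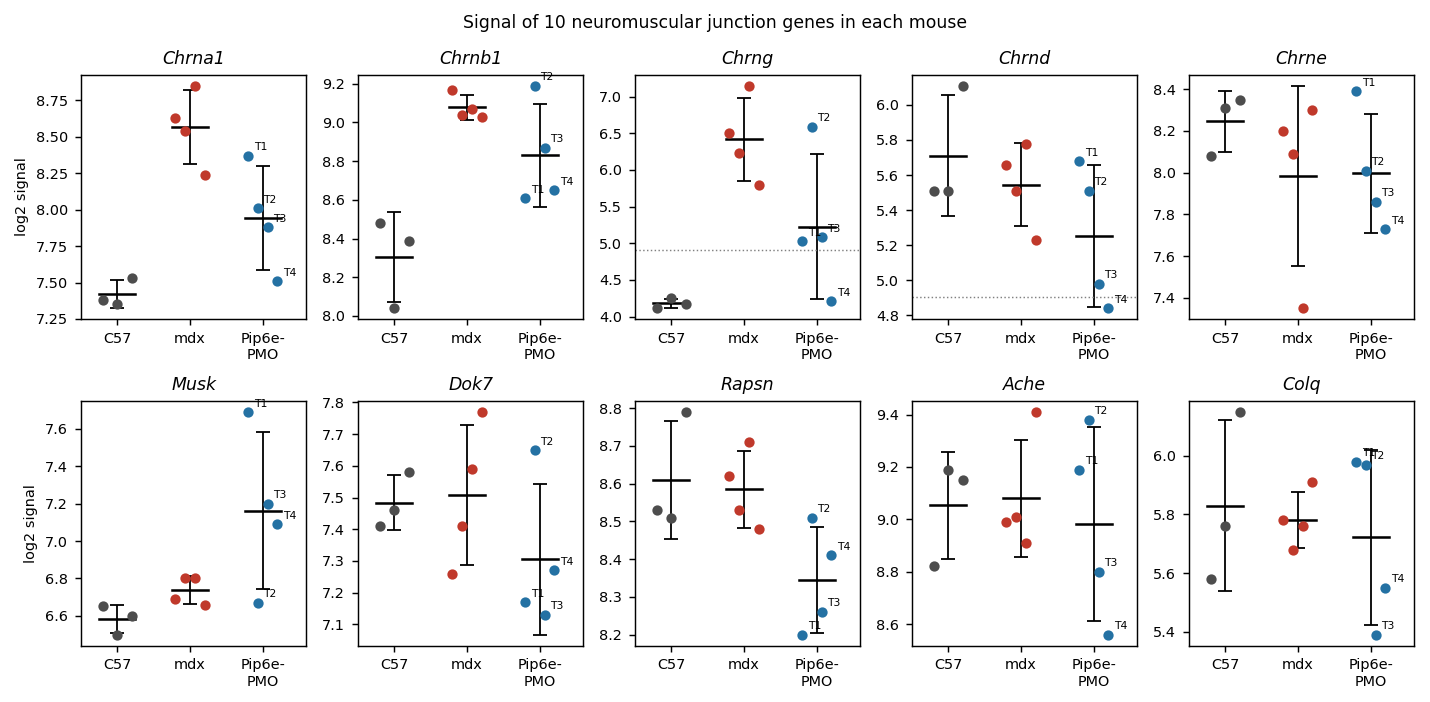
Log2 signal (vertical axes, each panel with its own range) of the 10 genes in 3 C57, 4 mdx and 4 Pip6e-PMO treated mice, with a point for each mouse and bars for the mean and SD. T1 to T4 name the treated mice, and the dotted line in the Chrng and Chrnd panels is a signal of 30. Chrng, Chrna1 and Chrnb1 are higher in every mdx mouse than in any C57 mouse, and T2 lies within or above the mdx range for Chrng and Chrnb1.

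The delta and epsilon subunit genes gave no called difference. Chrnd measured 5.51, 5.51 and 6.11 in C57, 5.66, 5.51, 5.78 and 5.23 in mdx and 5.68, 5.51, 4.98 and 4.84 in T1 to T4, so the groups overlapped. Its difference in mdx was -0.16 with a 95% interval of -0.65 to 0.32 (adjusted p = 0.719 in limma). Chrnd is the neighbour of Chrng, 5739 bases away on chromosome 1 in the deposited positions, which name no genome build, and 5740 in RefSeq. The interval of Chrnd leaves out a rise of the size seen in Chrng. The Chrnd signals were low, with linear means of 53.4 in C57 and 47.2 in mdx, so background limits this reading.

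Chrne, the adult epsilon subunit, measured 8.08, 8.31 and 8.35 in C57, 8.20, 8.09, 7.35 and 8.30 in mdx and 8.39, 8.01, 7.86 and 7.73 in T1 to T4. The groups overlapped, and mdx 3, the mouse with the highest Chrng, had the lowest Chrne of the 11. The difference in mdx was -0.26, with an interval of -0.73 to 0.21 (adjusted p = 0.517). Between treated and mdx mice it was 0.01, with an interval of -0.42 to 0.45.

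The Chrng signal minus the Chrne signal on the same array follows the fetal against the adult subunit within each mouse. Because different probes are compared, only its change between groups can be read, not its level. It was -3.96, -4.06 and -4.18 in C57, -1.70, -1.86, -0.20 and -2.50 in mdx and -3.36, -1.42, -2.78 and -3.52 in T1 to T4. The mdx mice were higher than the C57 mice by 2.50, with no overlap. A two-sided exact permutation test gave p = 0.0286, the smallest that 35 arrangements of 3 and 4 mice allow, and 0.0857 after adjustment over 3 comparisons, so it did not pass. The measure shares its Chrng values with the test above, and the Chrng signals of the C57 mice lie under 30. With those raised to 30 the difference was 1.77 (exact p = 0.0571, adjusted 0.171), still with no overlap. The treated mice were lower than the mdx mice by a difference of -1.20 (exact p = 0.171, adjusted 0.171), with T2 again among the mdx mice, and by -1.66 without T2 (exact p = 0.0571, adjusted 0.0857). Against C57 the treated mice were higher by 1.30 (exact p = 0.0857, adjusted 0.129), and by 0.85 without T2 (exact p = 0.1, the smallest for 3 against 3 mice, adjusted 0.1).

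Musk, Rapsn and Dok7, which organise the synapse, gave no called difference in mdx muscle. Musk, the receptor kinase, measured 6.65, 6.50 and 6.60 in C57 and 6.69, 6.80, 6.80 and 6.66 in mdx, and 7.69, 6.67, 7.20 and 7.09 in T1 to T4. Its mdx mice lay just above the C57 mice, and T1, T3 and T4 lay above all 7 of them. The mdx difference of 0.15 was not called (interval -0.24 to 0.55, adjusted p = 0.667 in limma). Rapsn, the receptor-clustering protein, measured 8.53, 8.51 and 8.79 in C57, 8.62, 8.53, 8.71 and 8.48 in mdx and 8.20, 8.51, 8.26 and 8.41 in T1 to T4. The C57 and mdx mice overlapped with a difference of -0.02 (interval -0.27 to 0.22), and T1, T3 and T4 were the lowest of the 11 mice.

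Dok7, the adaptor that activates MuSK, measured 7.41, 7.46 and 7.58 in C57, 7.26, 7.41, 7.59 and 7.77 in mdx and 7.17, 7.65, 7.13 and 7.27 in T1 to T4. Its mdx difference was 0.02, with an interval of -0.29 to 0.34. Acetylcholinesterase, Ache, measured 8.82, 9.19 and 9.15 in C57, 8.99, 9.01, 8.91 and 9.41 in mdx and 9.19, 9.38, 8.80 and 8.56 in T1 to T4. Colq, the collagen tail that anchors this enzyme in the synaptic matrix, measured 5.58, 5.76 and 6.15 in C57, 5.78, 5.68, 5.76 and 5.91 in mdx and 5.98, 5.97, 5.39 and 5.55 in T1 to T4. The groups overlapped for these 3 genes, and the mdx differences of Ache (0.03, interval -0.39 to 0.44) and Colq (-0.05, interval -0.41 to 0.32) were not called.

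In treated against mdx muscle, Chrna1 was the only member called, and it fell. Its difference was -0.62 (standard error 0.17, adjusted p = 0.0388 in limma), and 3.88% of all probe sets were called lower and 7.26% higher. The call is narrow: it was lost without C57 1 or 2, T3, T4 or any of the 4 mdx mice, with adjusted p-values up to 0.104 and differences from -0.76 to -0.48. In no member did the treated mice lie wholly on 1 side of the mdx mice, against 16.0% of all probe sets. At an unadjusted p under 0.05 there were 4 of the 10 members, and 31.5% of all probe sets. The median difference of the 10 genes was -0.22, against 0.02 over all probe sets.

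Chrng differed by -1.19 between treated and mdx mice (standard error 0.41, adjusted p = 0.0752 in limma), Chrnb1 by -0.25 (adjusted p = 0.234), Musk by 0.42 (adjusted p = 0.109) and Rapsn by -0.24 (adjusted p = 0.132). Each of these 4 genes passed the threshold when T2 was left out. Without T2, Chrng fell by 1.65 (adjusted p = 0.00391), Chrnb1 fell by 0.37 (adjusted p = 0.0346), Rapsn fell by 0.30 (adjusted p = 0.0493) and Musk rose by 0.59 (adjusted p = 0.00951). Chrna1 stayed called at -0.64 (adjusted p = 0.0265), so that 5 members passed. Without T2 the calls over all probe sets grew as well, to 12.0% lower and 16.4% higher. Chrnd, Chrne, Dok7, Ache and Colq did not pass in either fit.

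**Figure D3:**
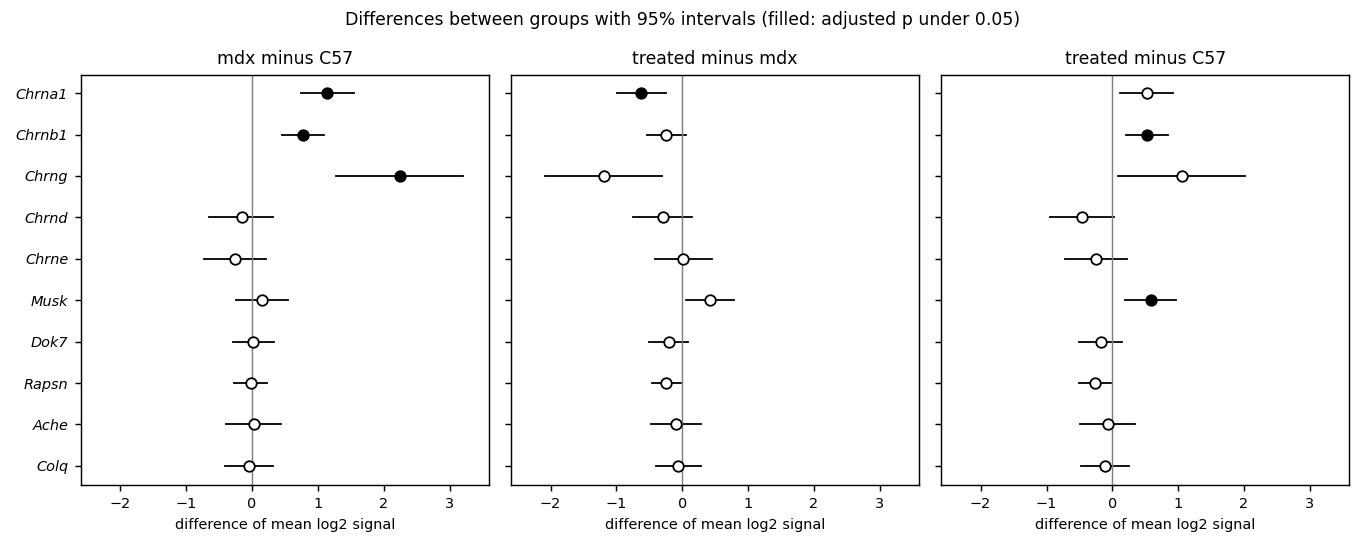
Differences between mean log2 signals (horizontal axes) of the 10 genes in the 3 comparisons, with 95% intervals from limma. Filled points have an adjusted p under 0.05: Chrna1, Chrnb1 and Chrng in mdx against C57, Chrna1 in treated against mdx, and Chrnb1 and Musk in treated against C57.

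How far each treated mouse had moved from the mdx mean towards the C57 mean was read as a percent of the difference between those means. The distance is a description, since the 3 genes were chosen by their rise in the same mdx mice. For Chrna1 it was 17% in T1, 48.5% in T2, 59.8% in T3 and 92.1% in T4, a mean of 54.4% ± 31.0 (SD, n = 4). For Chrng it was 62.1% in T1, -7.59% in T2, 59.8% in T3 and 98.7% in T4, a mean of 53.2% ± 44.3 (SD, n = 4). For Chrnb1 it was 60.4% in T1, -14.5% in T2, 26.8% in T3 and 55.2% in T4, a mean of 32.0% ± 34.3 (SD, n = 4). Without T2 the means were 56.3% ± 37.7, 73.5% ± 21.8 and 47.5% ± 18.1 for Chrna1, Chrng and Chrnb1 (SD, n = 3). T2 lay on the far side of the mdx mean for Chrng and Chrnb1 but not for Chrna1, and T4 was the nearest to C57 for Chrna1 and Chrng.

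In treated against C57 muscle 2 members were called, both higher: Musk and Chrnb1. Of all probe sets 15.6% were called higher and 8.96% lower, and the 2 groups did not overlap in 32.0% of all probe sets and in 2 of the 10 genes, the same Musk and Chrnb1. The median difference was -0.09, against 0.00 over all probe sets. Chrnb1 was higher by 0.53 (standard error 0.15, adjusted p = 0.0232 in limma) and Musk by 0.58 (standard error 0.18, adjusted p = 0.0355). The Chrnb1 call was lost without C57 2, C57 3 or T3 (adjusted p up to 0.105), and the Musk call without any of the 3 C57 mice, T1, T3 or T4 (adjusted p up to 0.11). Chrna1 (0.52, adjusted p = 0.0559) and Chrng (1.05, adjusted p = 0.0988) did not pass. Without T2, Chrnb1 was higher by 0.41 (adjusted p = 0.0265), Musk was higher by 0.74 (adjusted p = 0.00328) and Rapsn was lower, by -0.32 (adjusted p = 0.0414), while 20.3% of all probe sets were called higher and 13.8% lower. Chrng then differed by 0.59 (adjusted p = 0.142) and Chrna1 by 0.50 (adjusted p = 0.073). This comparison shares its treated mice with the one against mdx and its C57 mice with that of mdx against C57.

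The genes around the receptor were read from lists that were chosen with earlier results of these data known. Of 28 tested synapse organisers, kinases and synaptic matrix genes, 5 were higher and 1 lower in mdx, with a median difference of 0.07, against 7.06% higher and 4.96% lower among all probe sets. Among the 28, the probe set of Etv5 lies on chromosome 10 in the deposited positions, while RefSeq places the gene on chromosome 16. It may not read Etv5, and it was not called. Neither Agrn nor Lrp4, the gene of the agrin receptor, was called. Agrn mRNA of the muscle sections differed by 0.12 (adjusted p = 0.569 in limma) and Lrp4 by -0.19 (adjusted p = 0.321). Agrin that the nerve delivers was not measured. Nrg1 was under the minimum signal in every group. Nes, the intermediate filament nestin that gathers under the endplate and in young fibres, rose by 1.21 (adjusted p = 0.00246). Scn4a, the sodium channel of the muscle membrane that is concentrated in the synaptic folds, fell by 0.57 (adjusted p = 0.00329).

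In treated against mdx muscle 3 of these 28 genes were higher and none lower, near the 7.26% higher and 3.88% lower of all probe sets, with a median difference of 0.21. Gabpa, the DNA-binding part of the GABP factor that reads the N-box, measured 5.61, 5.70 and 5.87 in C57, 5.74, 5.74, 5.71 and 5.46 in mdx and 6.36, 6.01, 6.39 and 6.68 in T1 to T4. All treated mice lay above all other mice. The rise over mdx was 0.70 (standard error 0.13, adjusted p = 0.0143 in limma), while Chrne, the entry with the N-box, differed by 0.01 in the same comparison. Against C57, 10 organisers were higher and 1 lower, where 15.6% of all probe sets were higher and 8.96% lower.

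Of the 11 nicotinic subunits outside the muscle receptor, 10 were under the minimum signal in every group. The other one, Chrna4, known from neuronal receptors, measured 5.33, 5.20 and 5.77 in C57, 4.11, 3.73, 4.18 and 4.06 in mdx and 3.73, 4.33, 4.00 and 4.12 in T1 to T4. The C57 mice stood above all mdx and treated mice. Chrna4 passed the minimum signal through the C57 group alone, with mdx and treated signals under 30, so that it was bound to differ once it passed. In the fit with no minimum signal it fell by 1.41 in mdx (adjusted p = 0.00062 in limma), a size limited by background. That fit does not undo the choice, since Chrna4 is named here because it passed the minimum, so its fall is a description. Beside it, the Schwann cell genes Mbp, which encodes a myelin protein, and Sox10, a transcription factor of the lineage, were lower in mdx. Mbp fell by 1.0 (adjusted p = 0.00384 in limma) and Sox10 fell by 0.56 (adjusted p = 0.0246). The part of nerve content in the Chrna4 difference was not tested. The motor neuron genes Chat, Slc18a3 and Slc5a7 were under the minimum signal in every group, so they give no reading of axons in the muscle. Bche, the second cholinesterase of muscle, was under it as well.

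Genes that respond when a fibre loses its nerve or its activity were read beside the receptor. Of 13 tested, 6 were higher in mdx and none lower, where 7.06% of all probe sets were called higher and 4.96% lower. The median difference of the 13 was 0.56, against -0.01 over all probe sets. The 6 higher genes include Myog, the gene of myogenin, which binds E-boxes (1.71, adjusted p = 0.0206 in limma), Ncam1, an adhesion molecule that spreads over the fibre after denervation (1.32, adjusted p = 0.00235), and Runx1, a transcription factor that rises in denervated muscle (1.72, adjusted p = 2.1e-05). The Myog call was lost without C57 1, C57 2 or mdx 3 (adjusted p up to 0.0799 in limma). Trim63 and Fbxo32, the ubiquitin ligases of wasting muscle, were not called. Myog measured 4.61, 4.99 and 5.56 in C57, 6.76, 6.34, 7.22 and 6.74 in mdx and 5.08, 7.0, 5.22 and 4.97 in T1 to T4. Every mdx mouse was above every C57 mouse, and T2 alone of the treated mice lay in the mdx range. In treated against mdx 1 gene of this list was higher and 1 lower, where 7.26% of all probe sets were called higher and 3.88% lower. Without T2 1 was higher and 5 lower, where 16.4% of all probe sets were called higher and 12.0% lower.

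Of 9 tested genes of regenerating fibres, 6 were higher in mdx and none lower, where 7.06% of all probe sets were called higher and 4.96% lower. The median difference of the 9 was 1.12, against -0.01 over all probe sets. The embryonic myosin Myh3 was higher by 1.87 (adjusted p = 0.0086 in limma) and the fetal and atrial light chain Myl4 by 1.71 (adjusted p = 0.00114). The linear mean of Myh3 in C57 was 19.3, under 30, so background limits the size of its rise. The mean log2 signal of the list ran from 7.49 to 7.54 in the C57 group, from 8.39 to 8.88 in the mdx group and from 7.86 to 8.56 after treatment, with T2 at the upper end. In treated against mdx 2 of these genes were lower, against 3.88% of all probe sets, and 4 without T2, against 12.0%. Between the groups the list moved in the same direction as Chrng, Chrna1 and Chrnb1. Among the treated mice T2 was the highest for the list, Chrng and Chrnb1, but T1 was the highest for Chrna1. The part of the list in the differences of these 3 genes was not tested. Macrophage genes also moved: 6 of 7 were higher in mdx, against 7.06% of all probe sets. The mean of the macrophage list was 6.32 to 6.72 in C57 and 7.34 to 8.10 in mdx.

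**Figure D4:**
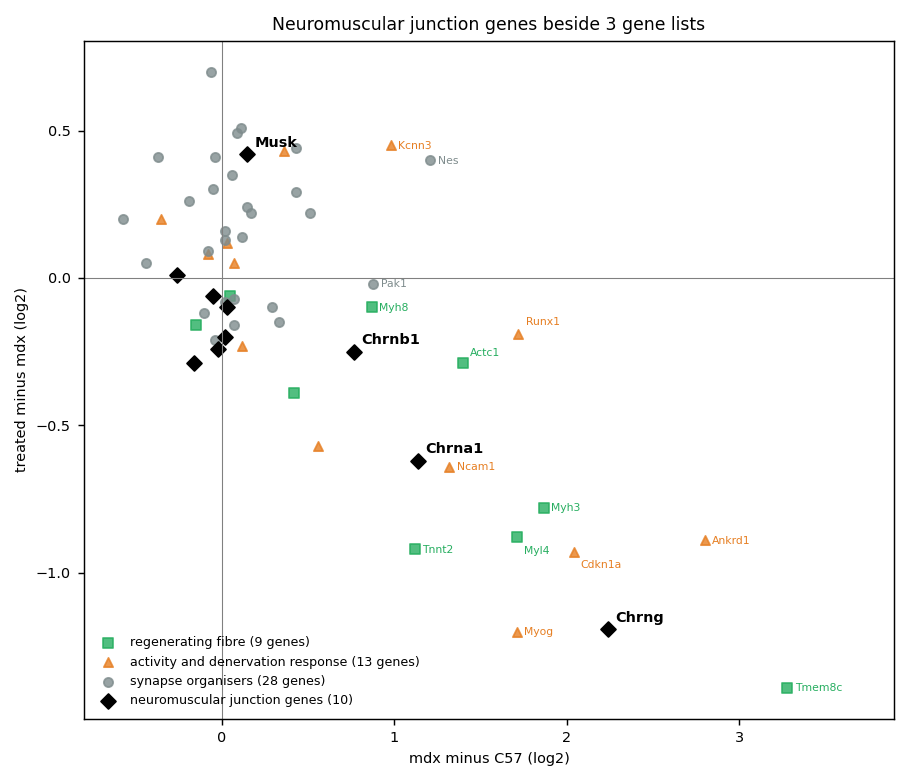
Difference of mean log2 signal in mdx against C57 (horizontal axis) and in treated against mdx (vertical axis) for the 10 junction genes (black diamonds) and the tested genes of 3 lists. The 2 axes share the mdx mice, so an opposite sign on them is no independent result. Chrng, Chrna1 and Chrnb1 lie to the right and below 0, among genes of the regenerating fibre and denervation lists, and Musk lies among the synapse organisers.

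The genes nearest in pattern to Chrng and Chrna1 were found by the root mean square distance between their log2 signals over the 11 mice, after subtracting the mean of each gene. Nearest to Chrng were Myh3 at 0.302, Tnni1 at 0.331, Igf2 at 0.364, Myog at 0.409 and Myl4 at 0.423. Tnni1 encodes the slow troponin I and Igf2 a growth factor of the fetus. The mouse mdx 3 was the highest of the 11 for Chrng and these 5 genes, and T2 was the highest of the treated mice for all 6. Nearest to Chrna1 were Gatm, an enzyme of creatine synthesis, at 0.132, and Ncam1 at 0.204. Il2rb at 0.218 and Csf3r at 0.238, both receptors of blood cells, and Tnnt2, the cardiac troponin T, at 0.251 followed. Il2rb and Csf3r had low signals and passed the minimum through the mdx group alone. The minimum signal thus helped to set their nearness to Chrna1. The distances describe these 11 mice, which fall into 3 groups, and carry no test.

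**Figure D5:**
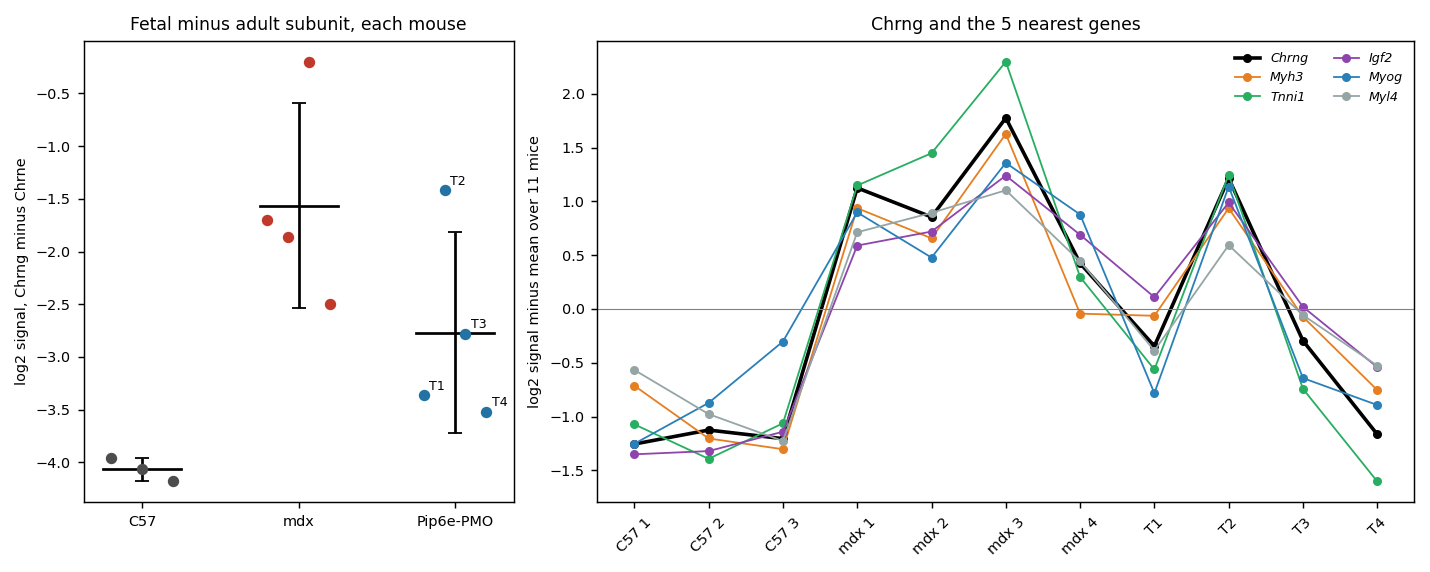
Left, log2 signal of Chrng minus that of Chrne in each mouse, with bars for the mean and SD: the range is -4.18 to -3.96 for C57, -2.50 to -0.20 for mdx and -3.52 to -1.42 for the treated group. Right, log2 signal of Chrng (black) and its 5 nearest genes in the 11 mice, each minus its own mean; lines join mice only to guide the eye, and T2 stands at the level of the mdx mice.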

How the data were processed

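Per the labels and methods, the authors hybridized RNA of each mouse to an Affymetrix Mouse Gene ST 1.1 array and made the values in Affymetrix Expression Console by RMA, with sketch-quantile normalization. The deposited values are intensities on the linear scale, and the log2 was taken here. The tests covered the 14494 probe sets whose mean reached 30 in some group, a limit taken from the methods. R 4.3.3 with limma 3.58.1 fitted 1 mean per group over all 11 mice, and lmFit and eBayes gave two-sided tests with Benjamini-Hochberg adjustment. The methods' t-test was an alternative. Intervals are 95%, unadjusted, from the same fit. The number of arrays limits the precision. The replicate numbers name different mice, and p-values measure the spread between mice. Genes named are the 10 members, called or central genes of the lists, and the 5 nearest patterns. The members and lists were chosen with earlier results of these data known. The Schwann cell list as a whole is not reported here. Promoters came from RefSeq for GRCm38.p6. Tables and plots used Python 3.11.15, pandas 2.3.3, NumPy 2.4.6 and matplotlib 3.10.9.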

Additional observations from a re-analysis of the deposited data

How the results depend on the processing

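In mdx against C57, Chrna1, Chrnb1 and Chrng were called under every alternative in which they were tested; a minimum signal of 100 left Chrng untested and 2 calls. Leaving out each mouse gave 3 calls each time. In treated against mdx the 1 call became 6 with array weights (Chrna1, Chrnd, Chrng, Musk, Rapsn and Dok7), 0 in a fit of only the 2 groups, 0 by the methods' t-test, 0 with no signal filter, and 0 to 5 with each mouse left out, 5 without T2. In treated against C57 the 2 calls became 5 with array weights, 0 in a fit of only the 2 groups, 0 by the methods' t-test, 0 at the paper's threshold, 1 with no filter, 1 with repeated quantile normalization, and 0 to 3 with each mouse left out. With the replicate block the counts were 3, 1 and 2, the last being Chrna1 and Chrng in place of Chrnb1 and Musk; deviations of same-numbered mice correlated at -0.297 to 0.153, so the numbers do not pair the mice. The causes were not tested. Values that turned sign were those of genes not called: with array weights Chrnd (0.0009), Rapsn (0.05) and Ache (-0.07) in mdx against C57 and Chrne (-0.0012) in treated against mdx; with repeated quantile normalization Chrne (-0.02) in treated against mdx; with arrays centred on the median Dok7 (-0.02) and Ache (-0.02), and with the block Dok7 (-0.01), in mdx against C57. With each mouse left out, mdx minus C57 ran from -0.26 to 0.04 for Chrnd, -0.08 to 0.06 for Rapsn, -0.06 to 0.11 for Dok7, -0.09 to 0.10 for Ache and -0.17 to 0.11 for Colq. Treated minus mdx ran from -0.20 to 0.12 for Chrne, -0.23 to 0.04 for Ache and -0.15 to 0.05 for Colq, and treated minus C57 from -0.20 to 0.07 for Ache and -0.23 to 0.05 for Colq. Signals near background limit Chrng and Myh3 in C57 and Chrna4 and Sox10 in mdx. They also limit Il2rb and Csf3r in C57 and treated mice, and low signals limit Chrnd.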
